A study of Homo sapiens with 2 samples.

Results

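A set of 10 genes of the hypoxia response was measured in PLC8024, a human hepatocellular carcinoma (HCC) line of epithelial form whose labels also call it Alexander cells, a name of PLC/PRF/5. The genes are HIF1A, EPAS1, EGLN1, EGLN3, VEGFA, CA9, CA12, ADM, NDRG1 and BNIP3, and all 10 were found by symbol among the 58735 genes of the deposited table. They were chosen by their function and by earlier values of the same comparison, in which VEGFA was lower while most hypoxia genes were higher, so their differences are given as a description. One library came from wildtype cells (WT) and 1 from cells in which MAEL, a cancer/testis gene, had been knocked out with Cas9 and a guide RNA (MAEL KO). The methods describe single-cell clones grown from sorted knockout cells, and the sources do not say whether the library came from 1 clone. The sources name no low-oxygen treatment for either library. With 1 library per group there is no replicate error and no test, and every interval below covers counting error only.

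The hypoxia response is run by the hypoxia-inducible factors (HIF). Each is a pair of an alpha subunit and the partner ARNT, and it binds short DNA elements with the core letters ACGTG or GCGTG. When oxygen is present, the EGLN enzymes hydroxylate the alpha subunit, VHL recognises it, and it is degraded, so that HIF activity is set largely at the protein level and not by the mRNA of the alpha subunits. When oxygen is scarce the alpha subunits persist, and genes for vessel growth, pH control, mitochondrial turnover and glycolysis are induced. In HCC, HIF1A and EPAS1 have been studied for vessel growth and drug response.

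The libraries held 19904136 (WT) and 20833332 (MAEL KO) counts, at which 3 counts, the floor used here, are 0.151 and 0.144 CPM (counts relative to the library total). MAEL itself had 1 count in WT and 0 in MAEL KO, so the knockout could not be checked by its transcript. Mitochondrial genes took 4.42% and 4.95% of the counts. All 9 liver cell markers listed were detected in both libraries, with summed levels of 9185 and 20264 CPM. Most of both sums came from SERPINA1 (78162 and 232891 counts) and APOB (80091 and 135805). The ratio between the libraries was largest for ALB, albumin, with 59 and 8550 counts, and smallest for KRT18, with 8981 and 10320. The 5 fibroblast, 4 endothelial and 4 leukocyte markers summed to 13.8, 17.8 and 1.96 CPM in WT and to 8.50, 19.6 and 0.384 in MAEL KO. Of these defining genes CD3E was at 0 in both libraries, PTPRC had 3 and 0 counts, and PECAM1 had 348 and 392. The fibroblast genes COL1A1 and COL3A1 moved in opposite directions, from 92 to 11 and from 54 to 136 counts. In RNA from a whole culture, fewer cells of a kind and less RNA per cell cannot be told apart, and the part of the higher liver markers in the values below was not tested.

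The direction differed between the 10 genes. NDRG1, EGLN3, BNIP3, ADM and CA9 were higher in MAEL KO by 10.8, 9.56, 3.02, 2.07 and 1.93-fold, in that order. VEGFA was 2.26-fold lower. EGLN1 was 1.29-fold higher, and HIF1A, EPAS1 and CA12 stood at 1.08, 1.01 and 1.03 times WT. These ratios are of read counts normalized by edgeR's trimmed mean of M-values (TMM), a scaling that assumes most genes to be unchanged between the libraries. The median log2 difference of the 10 genes, with 1 added to each normalized count, was 0.66, against -0.04 over the 17887 genes with at least 10 counts in 1 library. All 10 genes passed that filter. With TMM scaling the counting interval lay above 0 for 7 of them, as for 34.8% of all genes tested. It included 0 for EPAS1 and CA12 and lay below 0 for VEGFA, as for 34.7% of all genes.

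**Figure D1:**
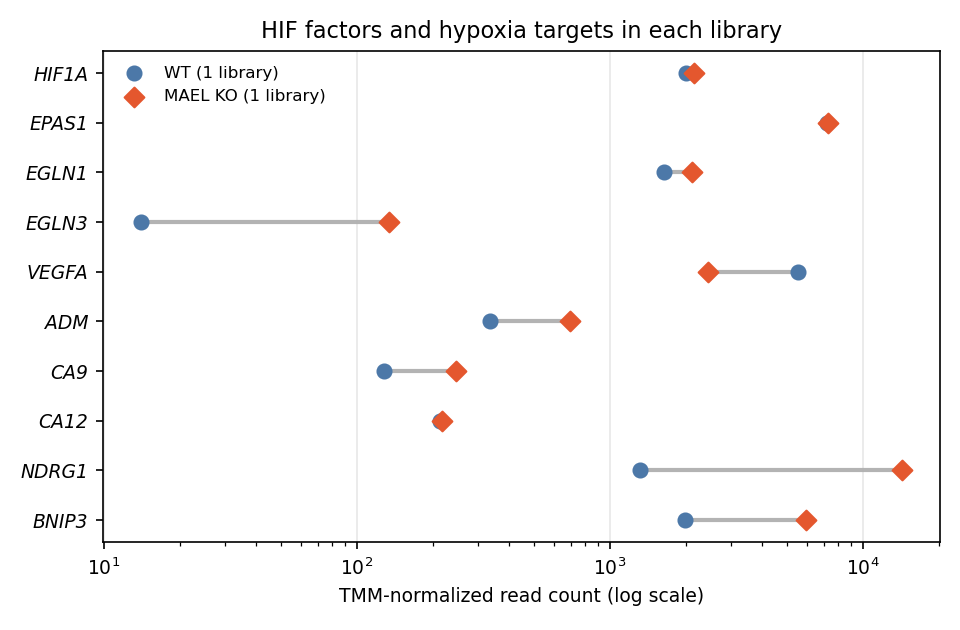
TMM-normalized read counts of the 10 genes in the WT library (circles) and the MAEL KO library (diamonds) on a log axis, joined by a line for each gene, with 1 library per point. NDRG1, EGLN3 and BNIP3 show the long lines to the right, VEGFA alone has its diamond well to the left of its circle, and the symbols of EPAS1, HIF1A and CA12 nearly coincide.

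The study's rule for differential expression joins a log2 difference of 2 with an adjusted p, and only the log2 part is used here. Above it were 2 of the 10 genes, NDRG1 and EGLN3, where 2.16% of all genes tested were above it, and none of the 10 was below -2, where 5.64% of all genes were. Past a log2 difference of 1 were 4 of the 10 on the higher side (NDRG1, EGLN3, BNIP3 and ADM), beside 10.2% of all genes, and VEGFA alone on the lower side, beside 16.5%. The choice of the genes used this same contrast, so nothing is read from these shares. Among the 17887 genes, NDRG1 ranked 68 and EGLN3 ranked 87 from the highest log2 difference, BNIP3 ranked 739, and VEGFA ranked 2414 from the lowest. Scaling by total counts in place of TMM shifts the log2 ratio by -0.28 before 1 is added, somewhat less for genes with few counts, and moves the median of all genes to -0.31. Under it HIF1A, EPAS1 and CA12 were at -0.16, -0.27 and -0.24, and ADM and CA9 were at 0.77 and 0.67. NDRG1 and EGLN3 remained above 2, at 3.16 and 2.90.

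**Figure D2:**
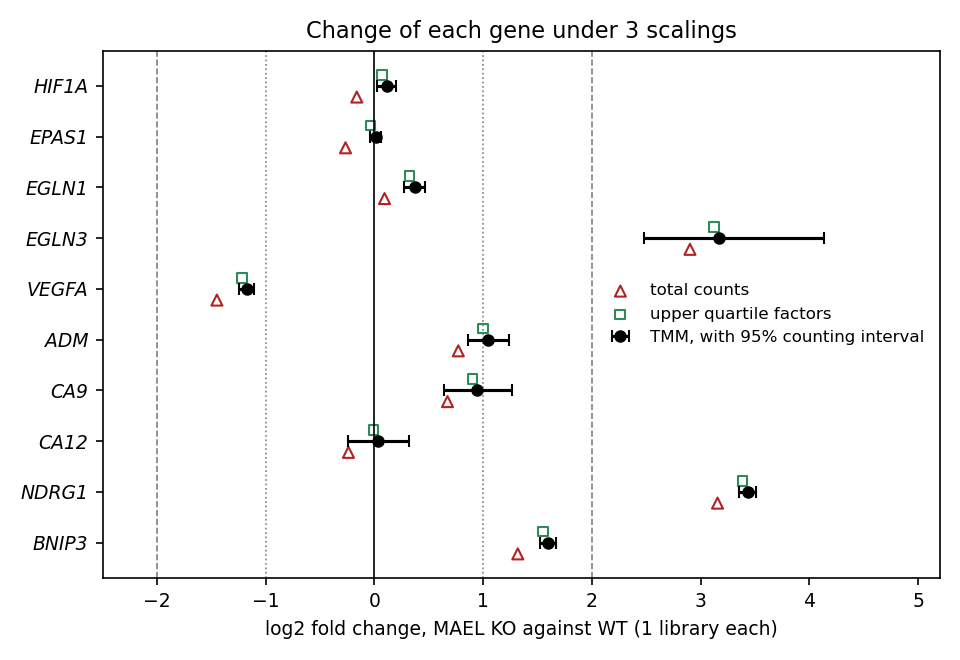
Log2 difference of MAEL KO against WT for the 10 genes, with TMM scaling and its 95% counting interval (filled circles and bars), total counts (triangles) and upper quartile factors (squares). The dotted lines mark 1 and -1, and the dashed lines 2 and -2. Only HIF1A, EPAS1 and CA12 have symbols on both sides of 0, and VEGFA is below -1 with each scaling.

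Promoter sequence was available for 8 of the 10 genes from RefSeq (GRCh38.p14), as windows of 250 bases before to 50 bases after the transcription start. VEGFA and NDRG1 had no window in that table. Each window was searched for ACGTG and GCGTG on both strands, a match on the other strand being read as CACGT or CACGC, and CACGTG counting as a match on each strand. HIF1A has 2 windows, of which the second held no match, and genes are counted by their first window. At least 1 match was present for 7 of these 8 genes and for 48.4% of all 27305 genes by first window. ACGTG was present for 3 genes, EGLN1, CA9 and BNIP3, and for 21.6% of all genes. The stretches below are shown because they hold the core letters of the HIF element. BNIP3, CA9 and ADM were higher in MAEL KO, and the genes of the HIF subunits hardly differed. EGLN1 had a small log2 difference, 0.37 with TMM and 0.09 with total counts. They run 5′ to 3′ on the strand of the gene, and capitals mark the matches.
BNIP3, chr10:131982020-131982069, minus strand: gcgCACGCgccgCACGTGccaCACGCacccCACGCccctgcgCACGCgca
CA9, chr9:35673897-35673926, plus strand: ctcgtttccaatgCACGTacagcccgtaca
ADM, chr11:10304959-10304988, plus strand: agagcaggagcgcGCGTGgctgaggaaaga
EGLN1, chr1:231422288-231422317, minus strand: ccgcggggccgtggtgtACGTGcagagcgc
HIF1A, chr14:61695296-61695325, plus strand: ttggctgagagcgGCGTGggctggggtggg
EPAS1, chr2:46297277-46297306, plus strand: ggggcctgccggcGCGTGcccgcccacaca
The BNIP3 stretch holds all 6 matches of its window, which begin at positions -143 to -104 from the start, and 1.98% of all 35116 windows held 5 or more. The CA9 match begins at position -18 and that of EGLN1 at -13. CA12, with a log2 difference of 0.04, had 2 matches to GCGTG, and its stretch is not shown. EGLN3, with one of the largest log2 differences of the set, had no match in its window. The starts are those of RefSeq. The stretches of CA9, ADM, EGLN1 and EPAS1 lie inside the gene spans given below, which begin before the RefSeq start. A match describes letters and not a bound site, and these libraries hold no measure of HIF binding. On 2 related lists described below, the first windows of 23 of 27 other non-glycolytic targets and of 14 of 20 glycolytic targets held a match to either motif.

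Per length, the 10 genes stood in another order in the 2 libraries. By deposited FPKM, a fragment count scaled to gene length and library size, the WT order was EPAS1 at 48.5, HIF1A at 18.9, VEGFA at 18.8, BNIP3 at 18.2, EGLN1 at 11.1, NDRG1 at 6.58, ADM at 6.04, CA9 at 3.75, CA12 at 1.43 and EGLN3 at 0.0932. HIF1A, VEGFA and BNIP3 were neighbours in this order. The ratios of HIF1A and BNIP3 to VEGFA were 1.01 (limits 0.96 and 1.06) and 0.968 (limits 0.921 and 1.02), with limits for counting error only. Length joins the exons of all annotated transcripts, 14431 bases for VEGFA, 5151 for HIF1A and 5325 for BNIP3. Orders and ratios between genes, here and below, depend on these annotated lengths. In MAEL KO the order of FPKM was NDRG1 at 70.9, BNIP3 at 54.7, EPAS1 at 48.7, HIF1A at 20.4, EGLN1 at 14.3, ADM at 12.5, VEGFA at 8.30, CA9 at 7.23, CA12 at 1.46 and EGLN3 at 0.889. NDRG1 thus moved from place 6 to place 1 and VEGFA from place 3 to place 7, while CA12 and EGLN3 kept the last places.

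HIF1A encodes the widely expressed alpha subunit and lies on chromosome 14 of GRCh38 from 61695513 to 61748259. It had 2135 counts in WT and 1996 in MAEL KO, which are 1990 and 2153 normalized counts. The log2 difference was 0.11, with counting limits of 0.02 and 0.20, and its sign depends on the scaling. EPAS1, on chromosome 2 from 46293667 to 46386703, encodes the alpha subunit of HIF2. It had 7748 and 6742 counts, or 7222 and 7271 normalized counts, and a log2 difference of 0.01 with limits of -0.04 and 0.06. The sign for EPAS1 also depends on the scaling, and neither level approached the log2 differences of NDRG1 or BNIP3.

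Per length, EPAS1 was the more abundant alpha subunit in both libraries. The ratio of EPAS1 to HIF1A per length was 2.56 in WT (limits 2.44 and 2.69) and 2.38 in MAEL KO (limits 2.27 and 2.51), and it does not depend on how the libraries are scaled. HIF3A, the third alpha subunit, had 5 and 4 counts and was not tested. ARNT, the common partner, had 1027 and 897 counts and a log2 difference of 0.02 with limits of -0.12 and 0.15. The coactivators CREBBP and EP300 were at 0.06 and 0.23. ARNT2, a second partner gene, went from 24 counts to 2, a ratio that was 10.4-fold lower, with a log2 difference of -2.89 and limits of -6.50 and -1.36. As 2 counts are under the floor, this value depends on the added count, and with 5 added it was -1.94.

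The EGLN enzymes are both the oxygen sensors of the pathway and, for EGLN1 and EGLN3, targets of HIF. EGLN1, the main HIF prolyl hydroxylase, lies on chromosome 1 from 231363751 to 231425044. It had 1760 and 1964 counts and a log2 difference of 0.37 with limits of 0.28 and 0.46, or 0.09 with total counts. EGLN3, on chromosome 14 from 33924231 to 34462774, went from 15 counts in WT to 124 in MAEL KO. These are 14.0 and 134 normalized counts, and the log2 difference was 3.17, with limits of 2.48 and 4.14. The wide limits come from the 15 counts, and with 5 added in place of 1 the value was 2.87. The span of EGLN3 contains SPTSSA on the same strand, which had 1419 and 1717 counts, but the annotation gives the pair no exon bases in common.

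Although EGLN3 differed the most within its family, it stayed a minor member. In WT the FPKM values of EGLN1, EGLN2 and EGLN3 were 11.1, 0.667 and 0.0932, and in MAEL KO they were 14.3, 1.08 and 0.889. The share of EGLN3 in the summed FPKM of the family went from 0.787% to 5.48%, and that of EGLN1 from 93.6% to 87.9%. Overlap with other genes was not checked for EGLN2, whose FPKM enters these shares. Per length EGLN1 exceeded EGLN3 by 119-fold in WT (limits 71.9 and 213) and by 16.0-fold in MAEL KO (limits 13.4 and 19.4). These limits cover counting error only.

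Of the 10 other genes for hydroxylation and degradation of HIF, none was above a log2 difference of 2 or below -2, where 2.16% and 5.64% of all genes were, and the median was 0.01. VHL, which recognises the hydroxylated subunit, had 2326 and 1451 counts and was at -0.47. HIF1AN, the asparagine hydroxylase that blocks coactivator binding, was at -0.23, and the transmembrane hydroxylase gene P4HTM was at -1.03, from 398 to 168 counts. SIAH1 and SIAH2, ubiquitin ligases that act on EGLN proteins, were at -0.32 and -0.53. Of the other parts of the VHL ligase, ELOB was at 0.24, or -0.04 with total counts, ELOC at 0.37, CUL2 at 0.46 and RBX1 at 0.94. EGLN2, the remaining prolyl hydroxylase, had 96 and 135 counts and was at 0.70. The counting interval lay above 0 for 5 of the 10 and below 0 for 5, and 69.5% of all genes had an interval that did not include 0. With total counts the median was -0.27.

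**Figure D3:**
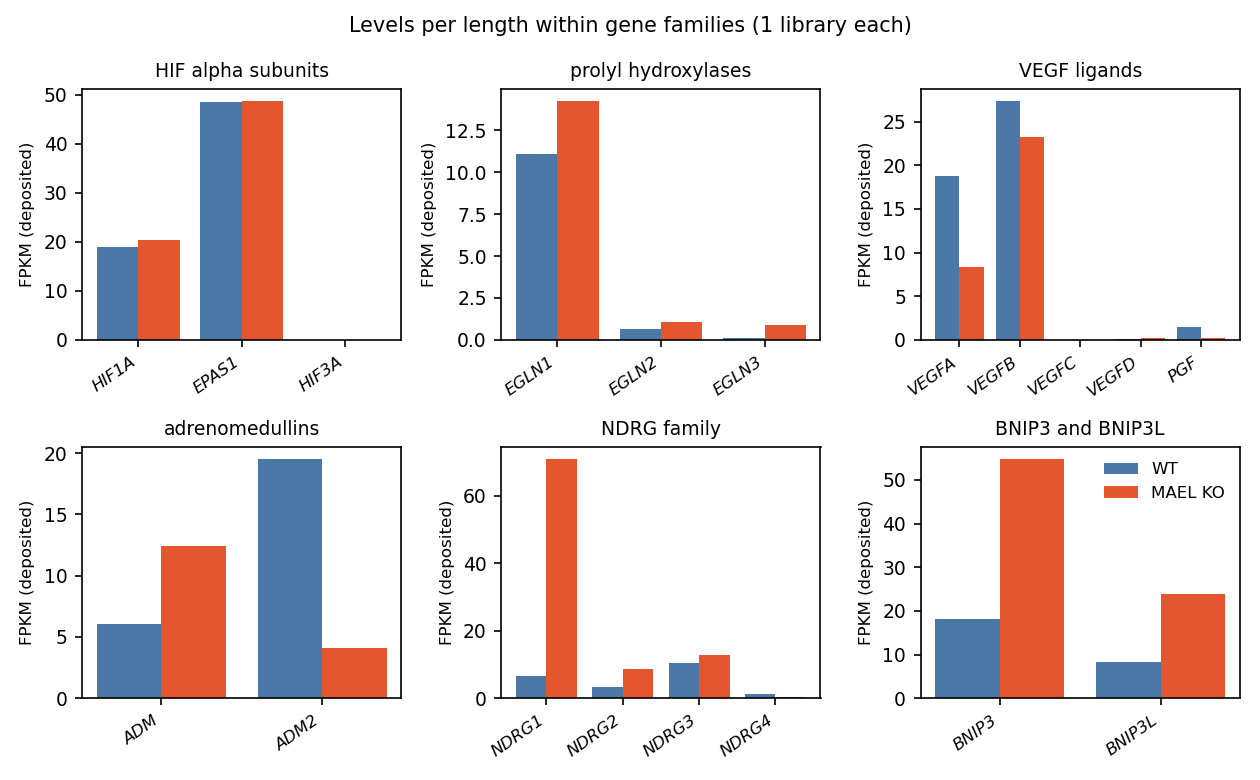
Deposited FPKM values, a level per length, in the WT (blue) and MAEL KO (orange) libraries for 6 gene families, with 1 library per bar, no error bars and axes that start at 0. EPAS1 is above HIF1A in both libraries, and EGLN1 has the highest FPKM of its family. Overlap with other genes was not checked for EGLN2. ADM and ADM2 exchange places, and NDRG1 goes from below NDRG3 to the highest of its family.

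VEGFA encodes the vascular endothelial growth factor that drives vessel sprouting, a textbook HIF target. It lies on chromosome 6 from 43770184 to 43786487, and its 32 annotated transcripts were counted together. It had 5925 counts in WT and 2270 in MAEL KO, or 5523 and 2448 normalized counts. The log2 difference was -1.17, with limits of -1.24 and -1.10, and it was between -1.45 and -1.17 over the 6 alternatives. With TMM scaling VEGFA was the only one of the 10 genes whose interval lay below 0.

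Ratios within a library give the contrast of VEGFA with the other targets without any scaling between libraries. The size of each ratio depends on the annotated lengths, while its change between the libraries does not. Per length, BNIP3 stood at 0.968 of VEGFA in WT and at 6.60 times VEGFA in MAEL KO (limits 6.28 and 6.93). NDRG1 went from 0.351 to 8.54 times VEGFA, and ADM from 0.322 to above VEGFA, with limits of 1.37 and 1.64 in MAEL KO. HIF1A, whose own level hardly moved, went from 1.01 to 2.46 times VEGFA. The choice of the genes used this same contrast, so these ratios restate it, and their limits cover counting error only.

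The other VEGF ligands and receptors are shown for all 9 genes, of which 4 had enough counts. VEGFB, a ligand with a weak role in sprouting, had 925 and 680 counts and was at -0.23. PGF, placental growth factor, went from 192 to 21 counts, a log2 difference of -2.93 with limits of -3.71 and -2.33. NRP2, a coreceptor, went from 384 to 54 counts and was at -2.60, whereas its relative NRP1 had 2283 and 2650 and was at 0.43. VEGFC was at 0 in both libraries, VEGFD had 3 and 7 counts and FLT4 3 and 5. The receptor genes FLT1 and KDR had 1 count in WT and 0 in MAEL KO, under the floor, so that no difference in them was detectable at this depth. VEGFA made up 39.4% of the summed FPKM of the 5 ligands in WT and 26.0% in MAEL KO. VEGFB had the higher FPKM in both libraries, while VEGFA had the more counts in both. The order and the shares depend on the length, which joins all annotated exons, 14431 bases for VEGFA and 1545 for VEGFB.

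ADM encodes adrenomedullin, a secreted vasodilator peptide. On chromosome 11 from 10304680 to 10307397, it had 359 counts in WT and 642 in MAEL KO, or 335 and 692 normalized counts. The log2 difference was 1.05, with limits of 0.86 and 1.24. It was above 1 with TMM and below 1 with total counts, at 0.77. Its relative ADM2 moved the other way, from 1824 to 330 counts, and was at -2.25 with limits of -2.43 and -2.09. Per length the ratio of ADM2 to ADM went from 3.23 (limits 2.88 and 3.63) to 0.327 (limits 0.285 and 0.374), so that ADM was the lower of the pair in WT and the higher in MAEL KO. CALCRL, the receptor subunit, had 53 and 13 counts and was at -1.75. Its partners RAMP1, RAMP2 and RAMP3 and the scavenging receptor ACKR3 had at most 3 counts in either library.

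CA9 and CA12 encode carbonic anhydrases of the cell surface, which hydrate carbon dioxide outside the cell and take part in pH control. CA9, on chromosome 9 from 35673856 to 35681159, had 137 counts in WT and 229 in MAEL KO, or 128 and 247 normalized counts. The log2 difference was 0.95, with limits of 0.64 and 1.27. This value carries a further limit, since 38.5% of the exon bases of CA9 are also exon bases of ARHGEF39 on the opposite strand. ARHGEF39 had 319 and 1272 counts, and the sources do not say whether reads were counted by strand, so reads of the shared bases cannot be assigned to one gene. CA12, on chromosome 15 from 63321378 to 63382161, overlaps no other gene and had 228 and 202 counts. Its log2 difference was 0.04, with limits of -0.24 and 0.32, and a difference within these limits was not detectable at this depth.

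Per length, CA9 exceeded CA12 by 2.63-fold in WT (limits 2.11 and 3.27) and by 4.96-fold in MAEL KO (limits 4.09 and 6.03). Both ratios also carry the limit of the exon bases that CA9 shares with ARHGEF39, which these limits do not cover. Both were minor beside CA2, the main cytosolic carbonic anhydrase, with FPKM values of 64.0 and 72.5 and a log2 difference of 0.18. Of 13 other carbonic anhydrases 7 were tested, with a median log2 difference of -0.54, and a median of 0.02 for the 3 that reached 100 counts. CA13, CA7 and CA14 were at the low end, at -1.31, -1.14 and -0.64, and CA11 was at -0.54. CA5B was at 0.02. CA5A, a mitochondrial form known from liver, went from 1 count to 25, a ratio that was 28.9-fold higher, with log2 limits of 2.24 and 10.2. As 1 count is under the floor, its log2 difference depends on the added count, from 2.43 with 5 added to 4.71 with 0.1 added.

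NDRG1, a stress-responsive cytoplasmic protein often used as a marker of HIF activity, showed the largest log2 difference of the 10 genes. It lies on chromosome 8 from 133237171 to 133302022 and overlaps no other gene. It had 1414 counts in WT and 13198 in MAEL KO, or 1318 and 14234 normalized counts. The log2 difference was 3.43, with limits of 3.35 and 3.51, and it was between 3.16 and 3.43 over the 6 alternatives. By FPKM it moved from percentile 64.5 to percentile 96.6 of the genes tested. Its 3 relatives differed in direction. NDRG2 was also higher in MAEL KO, with 537 and 1246 counts and a log2 difference of 1.42, NDRG3 had 734 and 783 and was at 0.30, and NDRG4 had 288 and 56 and was at -2.13. NDRG1 made up 30.6% of the summed FPKM of the family in WT, below NDRG3 at 48.0%, and 76.5% in MAEL KO.

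BNIP3 encodes a protein of the outer mitochondrial membrane that takes part in mitophagy, the removal of mitochondria by autophagy. On chromosome 10 from 131966455 to 131982013, it had 2117 counts in WT and 5527 in MAEL KO, or 1973 and 5961 normalized counts. The log2 difference was 1.59, with limits of 1.52 and 1.67. BNIP3 has 39 listed pseudogenes, which together had 66 and 86 counts. Its paralog BNIP3L, also a HIF target, had 783 and 1940 counts and was at 1.52. The ratio of BNIP3 to BNIP3L per length was 2.19 in WT (limits 2.01 and 2.38) and 2.30 in MAEL KO (limits 2.19 and 2.43). The change in this ratio was 0.08 on the log2 scale with a counting standard error of 0.07.

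Of the other genes for mitophagy, PINK1, a kinase that marks damaged mitochondria, went from 978 to 454 counts and was at -0.90. The receptors BCL2L13, FKBP8, FUNDC1 and PHB2 were at -0.36, -0.04, 0.20 and 0.58, and FUNDC1 was at -0.08 with total counts. None of these 5 genes had a log2 difference as high as BNIP3 or BNIP3L.

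Of the 34 other non-glycolytic hypoxia targets listed, 32 were tested, 23 were above 0 and 9 below, where 48.0% of all genes were above 0, and the median log2 difference was 0.51. With total counts 20 were above 0 and the median was 0.23. Above 2 were 4 of them, beside 2.16% of all genes. They were MIR210HG, the host transcript of a hypoxia-induced microRNA, at 2.81, the collagen lysyl hydroxylase PLOD2 at 2.32, the adenylate kinase AK4 at 2.11 and the transferrin receptor TFRC at 2.05. TFRC was named after its value had been seen, and with total counts AK4 and TFRC were below 2, at 1.84 and 1.77. VEGFA had company on the lower side. VLDLR, a lipoprotein receptor, was at -2.14, from 294 to 57 counts. The secreted glycoprotein STC2 was at -1.68, from 6244 to 1686 counts, and DDIT4, an inhibitor of mTOR signalling, was at -1.42, from 7417 to 2398 counts. These 3 are the genes of the list below -1 with TMM scaling.

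Of 21 glycolytic hypoxia targets, all were tested, 19 were above 0, beside the 48.0% of all genes, and the median was 1.29. With total counts 18 were above 0 and the median was 1.01. LDHA, lactate dehydrogenase A, was the only one above 2, where 2.16% of all genes were, at 2.90, from 6021 to 38749 counts. GPI and PGK1, enzymes of the upper and the lower part of the pathway, were at 1.93 and 1.85. ENO2 and PFKP were the 2 below 0, at -1.03 and -0.73, and HK1 was at 0.12, or -0.16 with total counts. The 10 genes had a median, 0.66, between the medians of these 2 lists, and ranged from -1.17 to 3.43. No test of the difference between the lists was made.

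**Figure D4:**
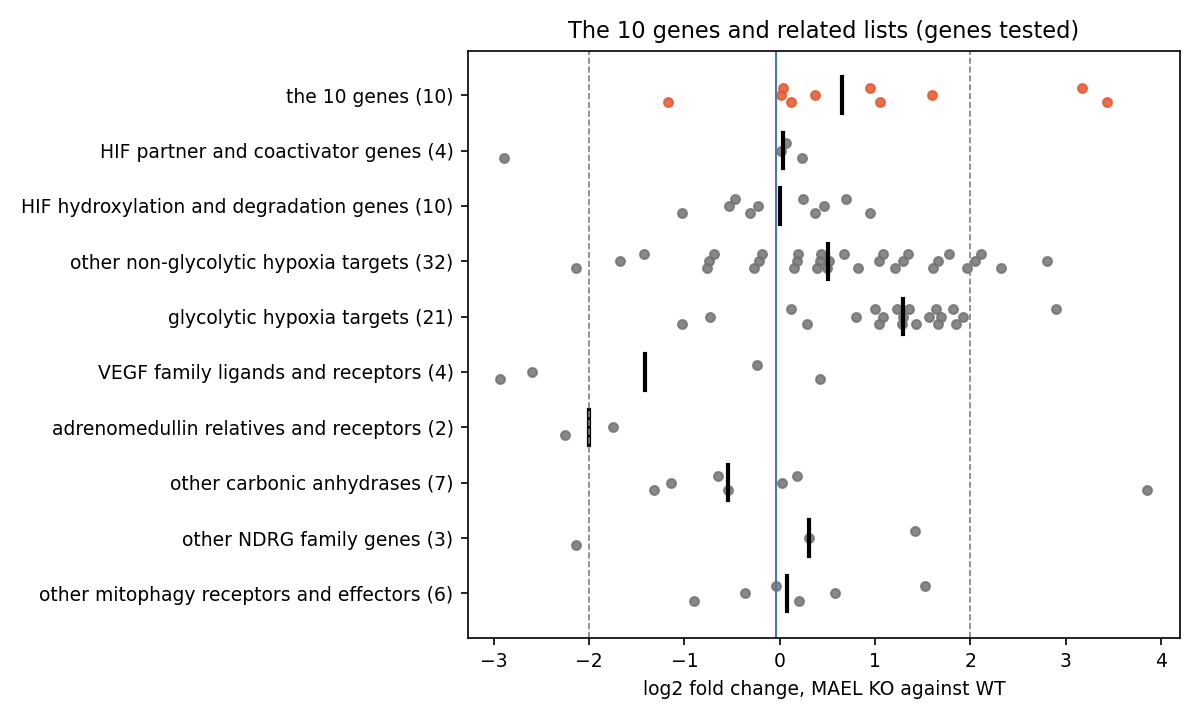
Log2 difference of MAEL KO against WT for each gene tested in the set of 10 and in 9 related lists, with the number of genes tested in brackets. Black bars are medians, the blue line is the median of all genes tested (-0.04), and the dashed lines mark 2 and -2. Of the glycolytic targets 19 of 21 lie above 0, and the other non-glycolytic targets spread to both sides, from -2.14 to 2.81.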

How the data were processed

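One WT and 1 MAEL KO library were sequenced on an Illumina HiSeq instrument. The authors deposited raw read counts for each gene and FPKM values, in which the count is divided by the length of all exons of the gene and by a rescaled library size. The submitters' processing notes name HISAT2 2.0.5, featureCounts 1.5.0-p3 and hg19. However, the start and end of all 58735 genes equal those of GENCODE 29 on GRCh38, whose coordinates are used here. Strand handling is not given in the sources used here. The 4 columns of sample values were all used.

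Counts were scaled with TMM in edgeR 4.0.16 and R 4.3.3, and 1 was added before the log2 ratio of MAEL KO to WT. Genes with at least 10 counts in 1 library were kept. Intervals are exact Clopper-Pearson limits (95%) of the share of counts in MAEL KO, or of 1 gene of a pair within a library, and cover counting error only, as reads are not independent molecules. Genes at or under 3 counts in both libraries are given as counts. Lists are described by counts and medians. Alternatives were DESeq2 1.42.0 size factors, total counts, upper quartile factors, the FPKM ratio with 0.01 added, 0.1 or 5 added to counts, other filters and a log2 threshold of 1. Python 3.11.15, NumPy 2.4.6, SciPy 1.17.1, pandas 2.3.3 and matplotlib 3.10.9 were used, and the steps were tested on simulated data. The genes, lists and tests were chosen with earlier results of these data known. Named are the 10 genes, all genes of lists of up to 10, and up to 3 at each end of longer lists, with TFRC and CA11 added after their values had been seen. One gene of the mitophagy list is not reported here, so the text gives no summary of that list, and the plot of lists shows its other 6 genes.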

Additional observations from a re-analysis of the deposited data

How the results depend on the processing

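With 1 library per group, no library could be left out, and depth limits EGLN3 most, by its 15 counts in WT. At a log2 threshold of 1 in place of 2, the number of the 10 genes past it went from 2 to 4 on the higher side and from 0 to 1 on the lower side, and no scaling or added count changed the numbers at 2. Over all genes tested the 387 higher and 1008 lower became 1827 and 2951 at a threshold of 1, 250 and 513 with 5 added, 1029 and 1773 without a count filter, and 185 and 283 with at least 100 counts, by the construction of each setting. Of genes past 2, 27.7% were higher, against 17.0% with total counts, 36.7% without a filter, 39.5% with at least 100 counts and 38.2% past 1. The median of adrenomedullin relatives moved to -2.27 with total counts, and that of the other carbonic anhydrases went from -0.54 to 0.02 with at least 100 counts, which left 3 genes. Of 684 values of 114 genes under 6 alternatives, 96 left their counting interval, 85 of them with total counts, and 18 changed sign, 14 of them with total counts and 4 with upper quartile factors. None of those 18 had been past 2.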
